A study of Mus musculus with 9 samples.

Results

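Sulfotransferases of the Golgi move sulfate from the donor PAPS onto sugars of proteoglycans, glycoproteins and glycolipids, and the pattern they leave decides which growth factors, enzymes and lectins a cell surface can bind. Heparan sulfate chains are first N-sulfated by the Ndst enzymes and then receive sulfate at the 2-O, 6-O and 3-O positions from the Hs2st, Hs6st and Hs3st enzymes, while the Chst and Gal3st enzymes act on chondroitin, dermatan and keratan sulfate, on terminal sugars of glycoproteins and on glycolipids. Sulf1 and Sulf2 are secreted sulfatases that remove 6-O-sulfate from finished heparan sulfate, and Sumf1 makes the formylglycine that every sulfatase needs in its active site. The genes described here were chosen by symbol, as all numbered members of the Chst, Hs2st, Hs3st, Hs6st, Ndst1 to Ndst4, Gal3st1 to Gal3st4, Sulf and Sumf families, and they number 37 of the 24393 gene symbols in the count table. The family was picked from the difference between knockout and wild-type islets, in which Chst8, Hs6st2 and Sumf1 were already known to be among the larger rises. The values of these genes in that comparison are therefore descriptions, and no count of members in it is used as support.

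The libraries held islet RNA from female mice, whose age the labels do not give. The 4 knockout (KO) libraries came from Rip-cre; Ogt f/f mice, in which Cre driven by a rat insulin promoter deletes floxed Ogt, the gene of O-GlcNAc transferase, mainly in beta cells. The 5 wild-type (WT) libraries carried no Cre, with Ogt f/+ in WT 1 and WT 3 and Ogt f/f in WT 2, WT 4 and WT 5. None of these 9 libraries came from a mouse with Rip-cre and unfloxed Ogt. KO 3, KO 4, WT 4 and WT 5 were sequenced in run 3 (also called the 2nd run in the labels), and KO 1, KO 2, WT 1, WT 2 and WT 3 in run 1. Separate animals behind the libraries are not stated in the labels, so the spread that p-values rest on may be technical.

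Libraries held 3796043 to 6073537 counts, with those of run 3 the deeper ones. The ribosomal RNA precursor Rn45s took 28.5% of counts in WT 2 and 24.3% in WT 5, beside 9.62% to 19.4% in the others. Ogt stood at 23.7 to 39.3 CPM (counts per 1000000, on library sizes scaled by the TMM method) in KO islets and at 54.1 to 83.0 CPM in WT islets. The source of the Ogt counts left in KO islets was not tested. The 8 beta cell markers summed to 42465 to 82696 CPM in KO islets and 47341 to 109749 CPM in WT islets, and none was at 0, as the tissue label calls for. Within that list 4 of 8 were called lower in KO in edgeR's test (log2 fold changes of -1.53 for Mafa, -1.30 for Ucn3, -0.61 for Iapp and -0.29 for Nkx6-1), with a list median of -0.43. Delta and PP cell markers summed to 2996 to 4034 CPM in KO islets and 2228 to 3217 CPM in WT islets, and 1 of 5, Rbp4, was called higher, with a log2 fold change of 1.31. The part of these shifts in the members' values was not tested. Acinar markers summed to 51.5 to 1553 CPM in KO islets and 81.6 to 4481 CPM in WT islets, and fibroblast and stellate markers to 181 to 849 CPM in KO islets and 85.8 to 696 CPM in WT islets. Islets are mixtures, so fewer cells of a type and less RNA per cell cannot be told apart.

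Enough counts for a test were present for 22 of the 37 genes, in a fit over 12501 genes with sequencing run as a term. In edgeR's quasi-likelihood test 4 of the 22 were called higher in KO islets at a Benjamini-Hochberg adjusted p under 0.05, namely Chst8, Hs6st2, Sumf1 and Ndst1, where 9.56% of all tested genes were called higher. None was called lower, where 8.96% of all tested genes were. At an unadjusted p under 0.05 edgeR counted 7 higher and 0 lower. Over all tested genes 4027 of 12501 were under 0.05 in either direction, so 7 of the 22 is near that share. DESeq2 called 4 higher and 0 lower, and 2175 genes in all. Unadjusted it had 5 higher and 0 lower, where 3742 of 22987 genes were under 0.05 in either direction. With limma on the FPKM values 3 were called higher and 0 lower, and 1716 genes in all. Unadjusted it had 7 higher and 0 lower, where 3794 of 13056 genes were under 0.05 in either direction. The median log2 fold change of KO over WT was 0.30 over the 22 genes and 0.02 over all tested genes. Of the 22, 17 lay above 0, against 52.0% of all tested genes. Chst8, Hs6st2, Chst1 and Chst14 reached the level of the low-count filter in every KO library, and in too few WT libraries to pass without them. They are among the 17, so the median and the count above 0 only describe the tested genes. In CPM the KO and WT libraries did not overlap for 5 of the 22, all with KO above (Chst8, Hs6st2, Sumf1, Ndst1 and Hs2st1), against 5.97% of tested genes with KO above and 5.13% with KO below.

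**Figure D1:**
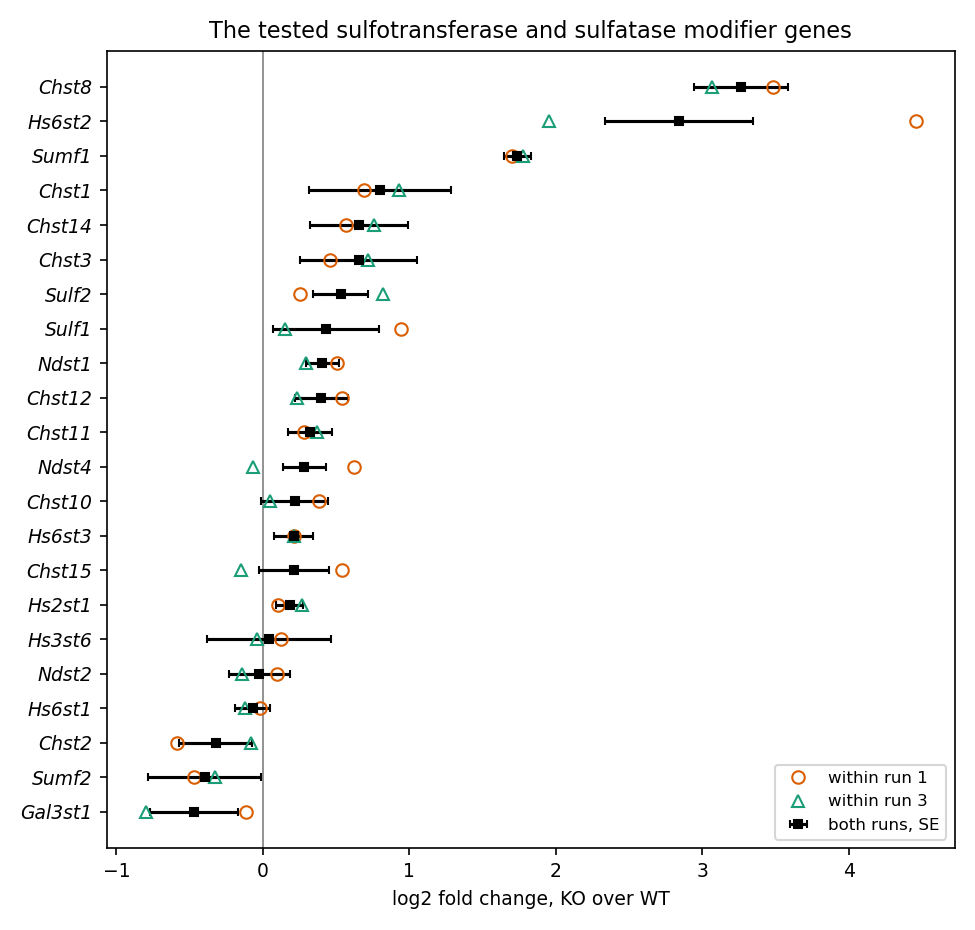
Log2 fold change of KO over WT (x axis) for the 22 tested genes (y axis), as black squares with standard errors from the fit of both runs, and as open symbols within run 1 (circles) and within run 3 (triangles). Chst8, Hs6st2 and Sumf1 lie at 3.27, 2.84 and 1.74, and the other 19 lie between -0.47 and 0.80.

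Sumf1 differed and Sumf2 was not called. Sumf1, the formylglycine-generating enzyme of the endoplasmic reticulum, stood at 250, 195, 211 and 225 CPM in KO 1 to KO 4, against 71.1, 68.0, 66.6, 70.2 and 56.9 CPM in WT 1 to WT 5. Every KO library lay above every WT library by a wide margin, and the WT libraries varied by a coefficient of variation of only 8.50%. The means were 221 ± 23.2 CPM in KO (SD, n = 4) and 66.6 ± 5.66 CPM in WT (SD, n = 5), a 3.31-fold ratio. Its log2 fold change was 1.74 ± 0.09 (SE), with 1.70 within run 1 and 1.78 within run 3, so both sequencing runs gave nearly the same value. Against the 3 Ogt f/f controls, with the f/+ controls as a separate group in the fit, it was 1.75 ± 0.11 (SE). Sumf2, a paralog that lacks the formylglycine-generating activity, stood at 5.29, 2.68, 6.48 and 1.76 CPM in KO 1 to KO 4 and between 3.21 and 6.93 CPM in WT, with overlapping groups and a log2 fold change of -0.40 ± 0.38 (SE, adjusted p = 0.515 in edgeR's test). Its exons share 630 bases with Phkg1 on the opposite strand, and the sources used here do not say whether the counting used strand. On the FPKM scale, which divides by transcript length, Sumf1 made up 98.1% ± 1.08 of the summed Sumf level in KO (SD, n = 4) and 92.0% ± 1.95 in WT (SD, n = 5).

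Chst8 adds sulfate to the 4-O position of terminal N-acetylgalactosamine, a cap best known from the N-glycans of pituitary glycoprotein hormones. It stood at 9.07, 13.4, 13.5 and 8.22 CPM in KO 1 to KO 4, against 0.98, 0.65, 1.24, 1.51 and 1.01 CPM in WT 1 to WT 5. These were 36, 55, 81 and 56 counts in KO and 4, 2, 5, 10 and 6 counts in WT, so the gene was close to the detection limit in WT islets and well above it in all KO islets. The means were 11.0 ± 2.78 CPM in KO (SD, n = 4) and 1.08 ± 0.32 CPM in WT (SD, n = 5), a 10.2-fold ratio. The log2 fold change was 3.27 ± 0.32 (SE), with 3.48 within run 1 and 3.07 within run 3. Chst9, the other enzyme for the same terminal sugar, had only 3, 3, 19 and 14 counts in KO 1 to KO 4 and 5, 0, 6, 9 and 15 counts in WT 1 to WT 5, so both groups overlapped. B4galnt3, which adds the terminal N-acetylgalactosamine that Chst8 can sulfate, averaged 9.15 ± 3.14 CPM in KO (SD, n = 4) and 4.10 ± 3.05 CPM in WT (SD, n = 5) and was called higher in edgeR's test, at 1.15 on the log2 scale (adjusted p = 0.0495). That call was lost in 17 of 22 alternative settings. B4galnt4, with the same role, had a log2 fold change of -0.45 (adjusted p = 0.25).

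Chst8 belongs to a wider class of 4-O-sulfotransferases, in which Chst11 and Chst12 act on chondroitin, Chst14 on dermatan, and Chst13 on chondroitin. Summed FPKM of the class was 32.3 ± 3.65 in KO (SD, n = 4) and 22.4 ± 4.19 in WT (SD, n = 5), with ranges of 29.3 to 36.9 in KO and 19.1 to 29.4 in WT that met at their edges. Chst8 made up 15.1% ± 4.82 of that sum in KO (SD, n = 4) and 1.73% ± 0.73 in WT (SD, n = 5), from 10.6% to 21.5% in single KO libraries and from 0.69% to 2.67% in single WT libraries. Chst11 remained the most abundant of the class, with 52.8% ± 6.01 in KO (SD, n = 4) and 61.7% ± 4.34 in WT (SD, n = 5). Chst12 made up 25.4% ± 5.35 in KO (SD, n = 4) and 28.4% ± 4.78 in WT (SD, n = 5). The authors' FPKM lists Chst9 at 0 in 3 libraries that hold counts for it, so its share of 0.85% in KO and 2.46% in WT is not a firm value.

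Hs6st2 is an X-linked heparan sulfate 6-O-sulfotransferase with a restricted tissue range. It stood at 6.55, 10.7, 5.98 and 10.3 CPM in KO 1 to KO 4, against 0, 0.97, 0.25, 1.20 and 3.04 CPM in WT 1 to WT 5. The counts were 26, 44, 36 and 70 in KO and 0, 3, 1, 8 and 18 in WT, so WT 5 was the highest WT library and still lay below every KO library. The means were 8.38 ± 2.46 CPM in KO (SD, n = 4) and 1.09 ± 1.20 CPM in WT (SD, n = 5). The log2 fold change was 2.84 ± 0.50 (SE), with 4.46 within run 1, where the WT libraries were lowest, and 1.95 within run 3. A test of that difference between runs gave a log2 interaction of -2.54 ± 1.01 (SE), not called by edgeR (adjusted p = 0.795). Against the 3 Ogt f/f controls, with the f/+ controls as a separate group in the fit, the log2 fold change was 2.23 ± 0.46 (SE). Over all 22 alternative settings it ranged from 1.22, on log2(FPKM + 1), to 3.77.

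The other 6-O-sulfotransferases carried most of the class. Hs6st1, which most tissues express, stood at 87.9, 78.1, 69.4 and 70.3 CPM in KO 1 to KO 4, against 76.5, 65.7, 110, 79.4 and 72.7 CPM in WT 1 to WT 5, with overlapping groups and a log2 fold change of -0.07 ± 0.12 (SE, adjusted p = 0.738 in edgeR's test). Its exons share 447 bases with the antisense gene Gm37335. Hs6st3 stood at 28.5, 35.1, 24.8 and 25.1 CPM in KO 1 to KO 4, against 25.4, 26.6, 30.3, 17.6 and 25.5 CPM in WT 1 to WT 5, again with overlapping groups (log2 fold change 0.21 ± 0.13 SE, adjusted p = 0.298 in edgeR's test). Summed FPKM of the 3 genes was 38.5 ± 1.20 in KO (SD, n = 4) and 35.8 ± 5.18 in WT (SD, n = 5). Hs6st2 made up 5.04% ± 1.64 of it in KO (SD, n = 4) and 0.69% ± 0.77 in WT (SD, n = 5), so the class total lay within the WT range while its rarest gene differed most.

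**Figure D2:**
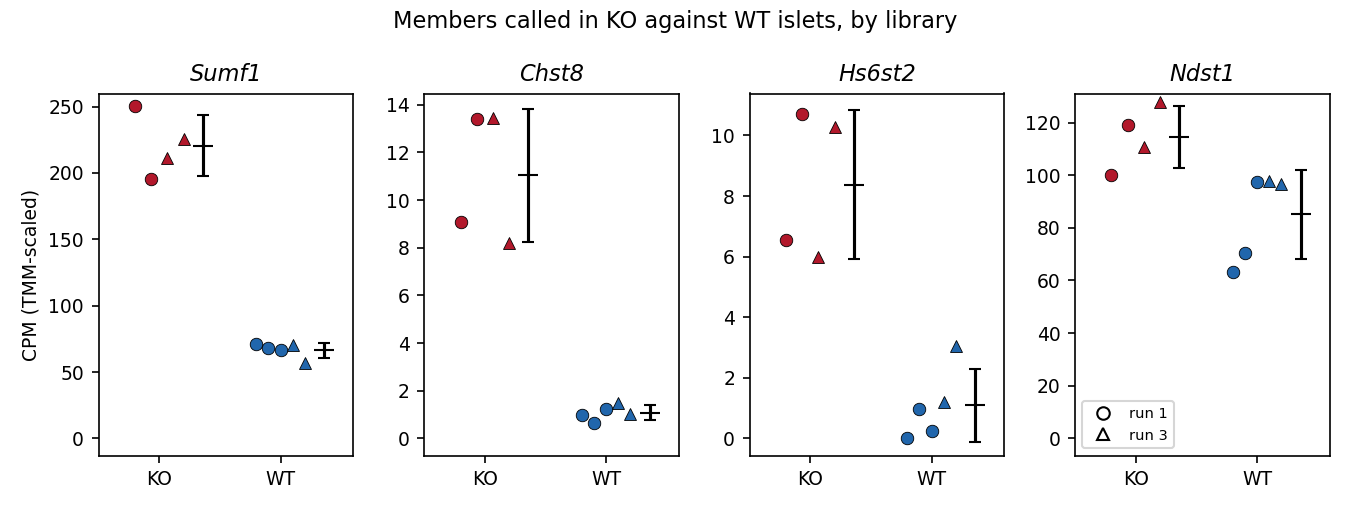
CPM (y axis, linear) of the 4 genes called higher, by library, with KO left of WT in each panel, circles for run 1, triangles for run 3, and the mean with its SD beside the points. Sumf1 lies at 195 to 250 CPM in KO and 56.9 to 71.1 CPM in WT, Chst8 at 8.22 to 13.5 and 0.65 to 1.51 CPM, Hs6st2 at 5.98 to 10.7 and 0 to 3.04 CPM, and Ndst1 at 100 to 128 and 63.3 to 97.9 CPM.

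The windows before the RefSeq starts of the 3 genes with the largest fold changes are shown so that their starts can be compared; each gene was higher in KO, but their order among KO 1 to KO 4 was not the same. Each line holds the 250 bases before the RefSeq start (RefSeq, GRCm38.p6, all 3 genes on the minus strand), 5′ to 3′ along the gene, with motif matches in capitals. Both RefSeq starts of Hs6st2 lie inside the gene as GENCODE annotates it, whose start is farther upstream, so by that annotation its windows fall within the transcribed span and not before it. In Chst8 the capitals mark 1 CCAAT box and 4 GC boxes (GGGCGG or its reverse complement), in Hs6st2 they mark 2 CCAAT boxes and 1 TATA box, and in Sumf1 they mark 1 E-box.
Chst8, chr7:34812712-34812961: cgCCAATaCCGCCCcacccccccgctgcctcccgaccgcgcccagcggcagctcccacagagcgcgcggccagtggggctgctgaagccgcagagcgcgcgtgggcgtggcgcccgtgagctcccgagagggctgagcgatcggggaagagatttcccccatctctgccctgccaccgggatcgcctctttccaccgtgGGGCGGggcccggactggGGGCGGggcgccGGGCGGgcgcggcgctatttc
Hs6st2, chrX:51681603-51681852: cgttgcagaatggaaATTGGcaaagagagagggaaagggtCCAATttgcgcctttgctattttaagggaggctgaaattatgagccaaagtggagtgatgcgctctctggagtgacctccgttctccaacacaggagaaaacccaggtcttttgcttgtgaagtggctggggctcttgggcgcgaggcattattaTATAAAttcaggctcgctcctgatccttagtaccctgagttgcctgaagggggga
Sumf1, chr6:108185584-108185833: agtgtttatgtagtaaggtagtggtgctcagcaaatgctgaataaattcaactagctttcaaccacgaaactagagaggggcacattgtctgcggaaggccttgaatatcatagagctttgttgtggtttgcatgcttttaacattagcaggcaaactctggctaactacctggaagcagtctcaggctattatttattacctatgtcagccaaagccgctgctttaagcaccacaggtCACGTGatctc

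The 3 windows were unlike each other in composition. Chst8 has 75.6% G and C and 32 CpG dinucleotides in the window, Hs6st2 has 50.0% and 7, and Sumf1 has 43.6% and 4, beside medians of 52.4% and 6.0 over 32851 promoter windows of the same length. RefSeq gives Hs6st2 another start, at whose upstream window (chrX:51680478-51680727) the share of G and C is 72.0% with 26 CpG dinucleotides and none of the motifs searched. Unlike at the starts of the windows shown, the bases after that start were not found in a GENCODE transcript of the gene. The motifs searched, on both strands, were the TATA box (TATAAA), the CCAAT box, the GC box (GGGCGG), the E-box (CACGTG), the cyclic AMP response element (TGACGTCA) and the ATF4 element (TGATGNAA), and no 2 matches overlapped in the windows shown. Over all windows TATAAA occurred in 12.4%, CCAAT in 33.8%, GGGCGG in 32.7%, CACGTG in 6.02%, TGACGTCA in 1.55% and TGATGNAA in 3.45%. No motif searched was shared by Chst8, Hs6st2 and Sumf1, and only CCAAT was shared by Chst8 and Hs6st2. Windows were found for 30 of the 37 genes, 36 windows in all, with a median of 62.6% G and C and 14.5 CpG dinucleotides. Such a match describes letters only. In the GENCODE M21 annotation of the same build, Chst8 lies on chromosome 7 from 34674468 to 34812711, Hs6st2 on chromosome X from 51387212 to 51681856, and Sumf1 on chromosome 6 from 108107028 to 108185582, and none of them shares exon bases with another annotated gene.

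The N-deacetylase/N-sulfotransferases open heparan sulfate modification, and later sulfation depends on the sites they prepare. Ndst1, the form that makes most N-sulfate in many tissues, stood at 100, 119, 111 and 128 CPM in KO 1 to KO 4, against 63.3, 70.3, 97.5, 97.9 and 96.6 CPM in WT 1 to WT 5. All KO libraries lay above all WT libraries, but KO 1 and WT 4 were only about 2 CPM apart. The means were 114 ± 11.8 CPM in KO (SD, n = 4) and 85.1 ± 16.9 CPM in WT (SD, n = 5), and the log2 fold change was 0.41 ± 0.11 (SE, adjusted p = 0.0215 in edgeR's test), with 0.51 within run 1 and 0.30 within run 3. The call was lost in 11 of 22 alternative settings, among them the model without the run term (0.43, adjusted p = 0.129), all 3 analyses of FPKM, and the fits without KO 2 (0.32, adjusted p = 0.0873), without KO 4 (0.39, adjusted p = 0.0584) and without WT 2 (0.37, adjusted p = 0.0509). Ndst4, whose product has little deacetylase activity, stood at 31.4 to 40.8 CPM in KO and 21.6 to 36.7 CPM in WT, and its log2 fold change was 0.28 ± 0.14 (SE, adjusted p = 0.188). Ndst2, which makes heparin in mast cells, averaged 9.33 ± 1.71 CPM in KO (SD, n = 4) and 9.40 ± 1.34 CPM in WT (SD, n = 5). Of the summed Ndst FPKM, Ndst1 held 60.9% ± 4.50 in KO (SD, n = 4) and 57.6% ± 6.26 in WT (SD, n = 5), and Ndst4 held 31.4% ± 5.22 in KO (SD, n = 4) and 33.2% ± 6.53 in WT (SD, n = 5).

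Hs2st1, the 2-O-sulfotransferase of heparan sulfate, had 52.2, 53.1, 54.2 and 62.8 CPM in KO 1 to KO 4, against 46.9, 47.9, 52.0, 50.4 and 46.8 CPM in WT 1 to WT 5. The groups did not overlap, although KO 1 exceeded WT 3 by less than 1 CPM, and the log2 fold change of 0.18 ± 0.09 (SE) was not called (adjusted p = 0.192 in edgeR's test). In FPKM, KO 2 at 9.94 lay below WT 3, WT 4 and WT 5, so the groups overlapped on that scale. Of the 3-O-sulfotransferases, which make rare sites such as the antithrombin-binding one, only Hs3st6 had enough counts for a test. It stood at 1.76 to 3.65 CPM in KO and 1.20 to 4.39 CPM in WT (log2 fold change 0.04 ± 0.42 SE), and it held 63.7% ± 18.7 of the summed 3-O FPKM in KO (SD, n = 4) and 66.5% ± 19.5 in WT (SD, n = 5).

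**Figure D3:**
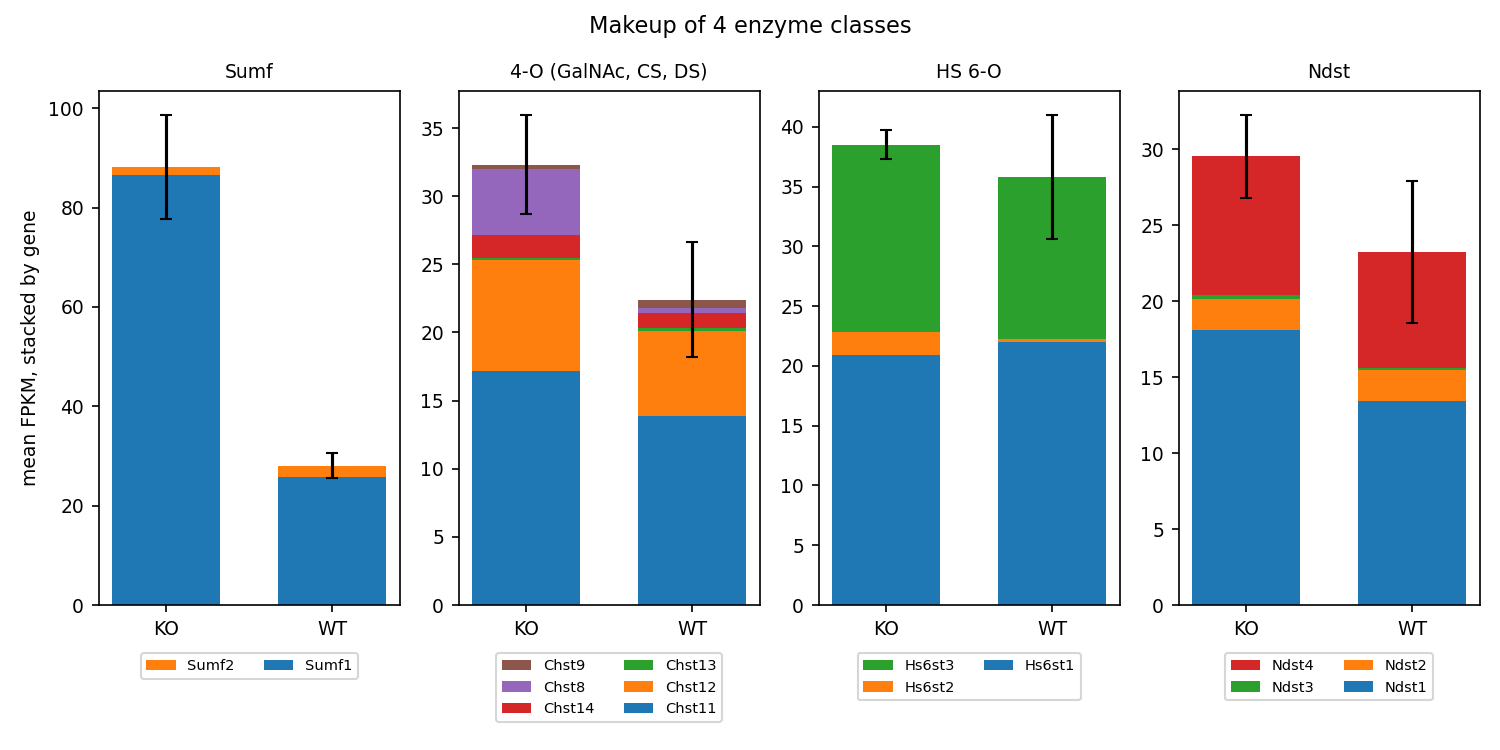
Mean FPKM (y axis, linear), stacked by gene, in KO and WT for the Sumf genes, the 4-O-sulfotransferases, the heparan sulfate (HS) 6-O-sulfotransferases and the Ndst genes; error bars are the SD of the class sum over 4 KO and 5 WT libraries. The Sumf sum is 88.2 in KO and 28.1 in WT, and Chst8 and Hs6st2 form visible layers in KO but little in WT.

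The secreted 6-O-endosulfatases act on the product of the Hs6st enzymes. Sulf2 stood at 18.1, 17.5, 25.3 and 17.6 CPM in KO 1 to KO 4, against 18.1, 15.9, 10.9, 12.2 and 12.0 CPM in WT 1 to WT 5. KO 3 was the highest and WT 1 lay among the other KO libraries, so the groups overlapped. The log2 fold change of 0.53 ± 0.19 (SE) was not called (adjusted p = 0.0598 in edgeR's test), but it was called without WT 1 (0.64, adjusted p = 0.0323) and with no filter on low counts (0.51, adjusted p = 0.0412). Within run 3 it was 0.82 ± 0.25 (SE, adjusted p = 0.047 in edgeR's test) and within run 1 it was 0.26 ± 0.24 (SE, adjusted p = 0.573), and the interaction of 0.56 was not called (adjusted p = 0.876). Sulf2 shares 154 exon bases with Ncoa3 on the opposite strand. Sulf1 stood at 2.02, 5.84, 16.9 and 10.6 CPM in KO 1 to KO 4, against 1.47, 4.21, 0.75, 11.0 and 13.7 CPM in WT 1 to WT 5, which split by run and not by genotype (log2 fold change 0.43 ± 0.36 SE, adjusted p = 0.444).

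Among the remaining chondroitin and dermatan enzymes none was called. Chst11, the main chondroitin 4-O-sulfotransferase, stood at 86.2, 118, 72.8 and 103 CPM in KO 1 to KO 4, against 68.4, 70.3, 112, 73.6 and 62.3 CPM in WT 1 to WT 5. WT 3 lay far above the other WT libraries and among the KO libraries, and the log2 fold change of 0.32 ± 0.15 (SE, adjusted p = 0.146 in edgeR's test) was called without WT 3 (0.46, adjusted p = 0.0165) and with no filter on low counts (0.31, adjusted p = 0.0354). Chst12 and Chst14 had log2 fold changes of 0.40 ± 0.18 and 0.66 ± 0.34 (SE). Chst3, a chondroitin 6-O-sulfotransferase, had 0.65 ± 0.40 (SE), and Chst15, which adds a further sulfate to 4-sulfated chondroitin, had 0.21 ± 0.24 (SE). Chst15 shares 1206 exon bases with the antisense gene Gm10584.

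The enzymes of keratan sulfate, terminal sugars and glycolipids were at low to middling levels. Chst1, a keratan sulfate galactose 6-O-sulfotransferase, stood at 2.201 to 4.869 CPM in KO and at 0.73, 0.97, 4.97, 1.66 and 1.01 CPM in WT 1 to WT 5, so that WT 3 alone reached above all KO libraries. Its log2 fold change was 0.80 ± 0.48 (SE, adjusted p = 0.273 in edgeR's test) with all libraries and 1.40 (adjusted p = 0.039) without WT 3. Chst2, which sulfates N-acetylglucosamine and takes part in making selectin ligands, had a log2 fold change of -0.32 ± 0.25 (SE). Chst10, which makes the HNK-1 epitope, had 0.22 ± 0.23 (SE). Gal3st1 makes sulfatide, a sulfated glycolipid of myelin that is also found in beta cells. It stood at 3.27 to 5.84 CPM in KO and 3.42 to 8.28 CPM in WT, and its log2 fold change was -0.47 ± 0.30 (SE, adjusted p = 0.302 in edgeR's test), the lowest of the 22.

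The other 15 genes did not pass the filter on low counts. They were Chst4, Chst5, Chst7, Chst9, Chst13, Gal3st2, Gal3st3, Gal3st4, Hs3st1, Hs3st2, Hs3st3a1, Hs3st3b1, Hs3st4, Hs3st5 and Ndst3, with 5 to 89 counts each over all 9 libraries and at most 3.49 CPM in any. For 5 of them (Chst4, Chst5, Gal3st2, Hs3st3a1 and Hs3st4) the run 1 libraries held 0 counts. Gal3st2 had 6 counts in KO 3 and 0 in every other library, and Hs3st4 had 6 counts in WT 4 and 0 in every other library, so neither level can be compared between groups at this depth. Hs3st3b1, at 1.00 to 2.68 CPM in KO and 1.86 to 2.93 CPM in WT, was the most counted of the 15, and its groups overlapped. A gene of this set that was high only in KO or only in WT would have had a better chance to pass the filter, so the 22 tested genes are not a random draw from the 37.

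Levels between genes were compared on the authors' FPKM. In WT islets the highest medians were those of Sumf1 (24.9 FPKM, range 24.1 to 29.4), Hs6st1 (22.2, range 16.7 to 27.9), Ndst1 (14.9), Hs6st3 (13.9) and Chst11 (12.4), and Sumf1 and Hs6st1 overlapped, as did Ndst1, Hs6st3 and Chst11. In KO islets Sumf1 had a median of 89.7 FPKM (range 71.7 to 94.99) and Hs6st1 of 20.9 FPKM (range 19.7 to 22.1), so there the first and the next gene in the order did not overlap. Chst8 took rank 9 of 37 in KO, with a median of 5.05 FPKM, and rank 22 in WT, with 0.40 FPKM. Hs6st2 took rank 16 in KO, with 1.88 FPKM, and rank 25 in WT, with 0.21 FPKM. All 37 genes together summed to 730 to 775 CPM in KO islets and 463 to 594 CPM in WT islets; without Sumf1 the sums were 514 to 577 CPM in KO and 392 to 528 CPM in WT, which overlapped.

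**Figure D4:**
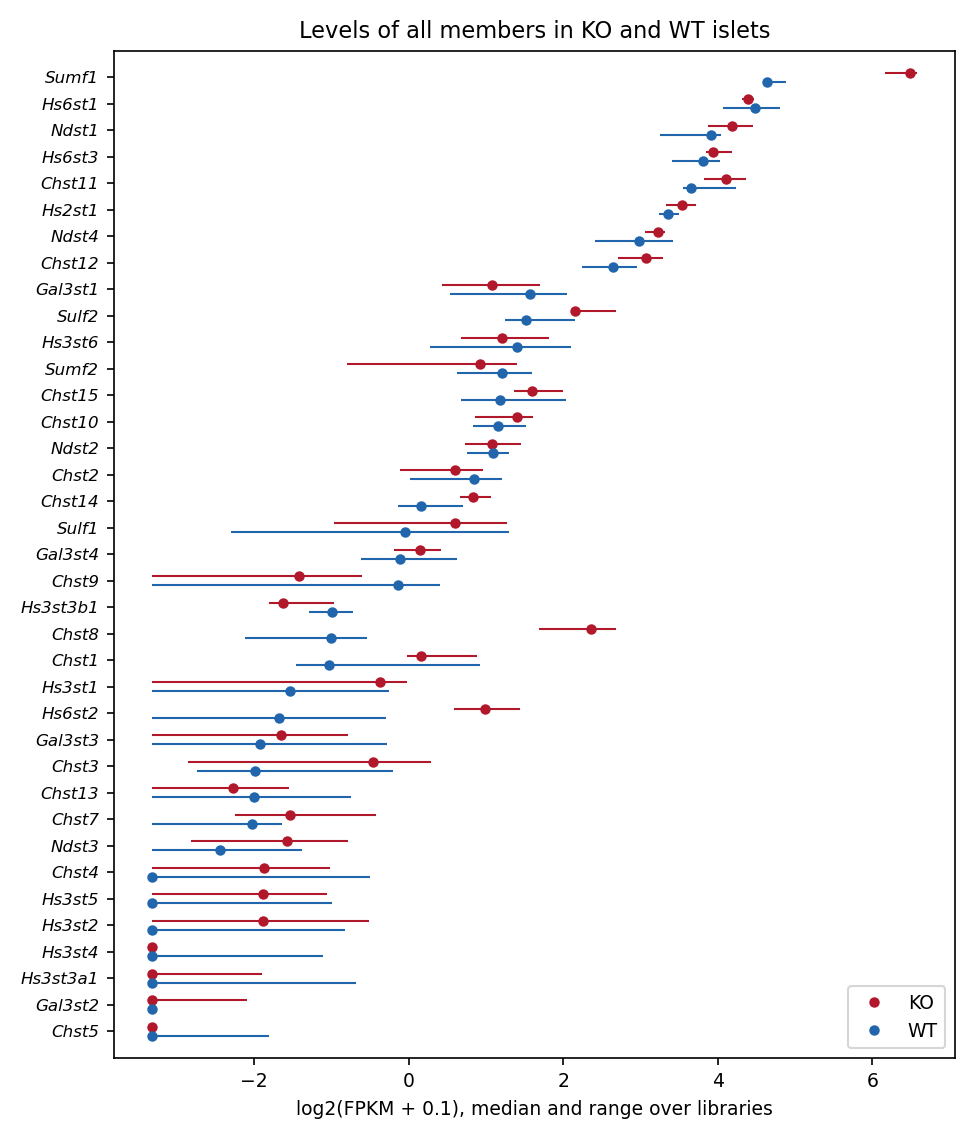
Log2(FPKM + 0.1) (x axis) of all 37 genes (y axis, ordered by WT median), with the median as a point and the range over libraries as a line, KO above WT for each gene. Sumf1, Chst8 and Hs6st2 are the 3 genes whose KO and WT lines do not meet, and the lowest 7 genes have a WT median of 0.

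The choice of genes by symbol did not use the run of sequencing, but the filter on low counts was not free of it. Chst3 held 1 to 6 counts in run 1 libraries and 23 to 49 in run 3, so it passed only through run 3. Sulf1 held 3 to 24 counts in run 1 and 72 to 102 in run 3, and its run 1 libraries alone would not have passed. The run values of both genes are therefore descriptions. In edgeR's test of run 3 against run 1, with genotype as a term, 2 of the 22 genes were higher and 1 was lower, where 15.1% of tested genes were called higher and 16.3% lower. Chst3 stood at 5.36 ± 1.58 CPM in run 3 (SD, n = 4) and 0.70 ± 0.51 CPM in run 1 (SD, n = 5), and the runs were fully apart in both genotypes. Its log2 fold change was 2.79 ± 0.42 (SE, adjusted p = 0.000127 in edgeR's test). Sulf1 stood at 13.0 ± 2.94 CPM in run 3 (SD, n = 4) and 2.86 ± 2.11 CPM in run 1 (SD, n = 5), and its log2 fold change was 2.19 ± 0.37 (SE, adjusted p = 0.000283 in edgeR's test). Chst12 was lower in run 3, at 9.78 ± 1.58 CPM (SD, n = 4) against 14.2 ± 3.22 CPM in run 1 (SD, n = 5), and its log2 fold change was -0.57 ± 0.18 (SE, adjusted p = 0.025 in edgeR's test). Fibroblast and stellate markers summed to 489 to 849 CPM in run 3 and 85.8 to 307 CPM in run 1. Schwann cell markers summed to 24.6 to 31.8 CPM in run 3 and 3.98 to 5.83 CPM in run 1, where 1 or 2 of 4 were at 0, and acinar markers to 51.5 to 150 CPM in run 3 and 289 to 4481 CPM in run 1. All 3 lists were fully apart between runs, and their part in the levels of Sulf1, Chst3 and Chst12 was not tested. The count of 3 fell to 1 without WT 4, and Sumf1, Chst8 and Hs6st2 had run terms of -0.07 ± 0.09, 0.06 ± 0.31 and 0.61 ± 0.50 (SE), none called.

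No gene's difference between KO and WT was called as different between runs. In edgeR's interaction test 0 of 12501 genes (0%) were called and 744 had an unadjusted p under 0.05, among them Hs6st2 and Ndst4, both with an adjusted p of 0.795. Ndst4 had log2 fold changes of 0.62 within run 1 and -0.07 within run 3. Between the f/+ and the f/f controls 0 of 12501 genes (0%) were called and 398 had an unadjusted p under 0.05, among them Hs6st2 (log2 fold change -3.53 ± 1.18 SE) and Sulf1 (-1.77), both with an adjusted p of 1. Both f/+ controls were in run 1, where the only f/f control was WT 2. With KO set against the f/f controls, the log2 fold changes were 3.28 ± 0.40 for Chst8, 2.23 ± 0.46 for Hs6st2 and 1.75 ± 0.11 for Sumf1 (SE), given as values only since these are the same KO libraries. Ndst1, at 0.42 ± 0.14 (SE), was then not called (adjusted p = 0.0658 in edgeR's test).

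Genes that feed, extend, carry or break down the sulfated chains were read from 8 lists, in which 75 genes were tested. In KO islets 16 of the 75 rose, 10 fell and 49 were not called, where over all tested genes 9.56% were called higher and 8.96% lower; the counts of each list below stand beside the same shares. Both counts depend on single libraries and on the model, since without KO 1 and without KO 2 the falls numbered 4 and 6, and without the run term 2 rose and 3 fell. In the supply of PAPS, 2 of 8 rose, 1 fell and 5 were not called, with a median log2 fold change of 0.02. Bpnt1, which clears the by-product of sulfate transfer in the cytosol, averaged 154 ± 29.1 CPM in KO (SD, n = 4) and 94.1 ± 17.9 CPM in WT (SD, n = 5), a log2 fold change of 0.71 (adjusted p = 0.00292 in edgeR's test; lost in 1 of 22 alternatives). Slc35b2, which carries PAPS into the Golgi, rose by 0.55 (log2; adjusted p = 0.0239; lost in 13 of 22 alternatives). Papss2, a PAPS synthase, fell by 0.39 (adjusted p = 0.0291; lost in 10 of 22 alternatives), while its paralog Papss1 had 0.02 (adjusted p = 0.905).

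Most of the enzymes that build the chains were not called, and of all tested genes 18.5% were called in either direction. Of 13 heparan sulfate and linker enzymes 0 rose, 3 fell and 10 were not called, with a median log2 fold change of -0.07, where 8.96% of all tested genes were called lower, and of 8 chondroitin and dermatan enzymes 0 rose, 1 fell and 7 were not called, with a median of 0.11, and 1 of 8 is near that share. Fam20b, the kinase that primes the linker xylose, averaged 102 ± 14.1 CPM in KO (SD, n = 4) and 170 ± 13.5 CPM in WT (SD, n = 5) and was called lower, with a log2 fold change of -0.73 (adjusted p = 0.00018 in edgeR's test). Glce, the epimerase that turns glucuronic into iduronic acid, averaged 37.9 ± 7.14 CPM in KO (SD, n = 4) and 57.2 ± 3.02 CPM in WT (SD, n = 5) and fell by 0.58 (adjusted p = 0.00314). Ext1, a subunit of the heparan sulfate polymerase, fell by 0.43 (adjusted p = 0.0236; lost in 8 of 22 alternatives), and Ext2, its partner, had -0.07 (adjusted p = 0.622). Dsel, a dermatan epimerase, fell by 0.64 (adjusted p = 0.0236; lost in 9 of 22 alternatives).

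Among core proteins that carry the chains, 8 of 20 tested were called higher, where 9.56% of all tested genes were. Of 12 heparan sulfate core proteins 5 rose, 0 fell and 7 were not called (median log2 fold change 0.30), and of 8 chondroitin sulfate core proteins 3 rose, 0 fell and 5 were not called (median 0.57). The medians within run 1 and run 3 were 0.41 and 0.14 for the heparan sulfate list, and 0.84 and 0.35 for the chondroitin sulfate list. Sdc4, a syndecan of the cell surface, rose by 0.42 (adjusted p = 0.00609 in edgeR's test; lost in 1 of 22 alternatives), and Gpc6, a glypican, by 1.09 (adjusted p = 0.0094; lost in 5 of 22 alternatives). Col18a1, a basement membrane collagen, and Tgfbr3, a TGF-beta co-receptor, rose by 0.63 and 0.51 (adjusted p = 0.0114 and 0.0179; lost in 4 and 9 of 22 alternatives). Cd44, a hyaluronan receptor of which some forms carry chondroitin sulfate, had log2 fold changes of 1.90 within each run. Cspg4, a pericyte proteoglycan, and Bgn, a small matrix proteoglycan, rose by 0.66 and 0.54 (adjusted p = 0.0217 and 0.0242; each lost in 9 of 22 alternatives). Within run 1 and run 3 the log2 fold changes were 0.43 and 0.40 for Sdc4, 1.54 and 0.70 for Gpc6, and 1.01 and 0.30 for Col18a1. They were 0.68 and 0.33 for Tgfbr3, 1.00 and 0.32 for Cspg4, and 0.88 and 0.23 for Bgn. For none of these genes was the interaction of genotype and run called. Fibroblast and stellate markers had a median log2 fold change of 0.57, with 1 of 6 tested called higher and at most 1 of 7 at 0 in a library, and their part in the core protein values was not tested.

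The sulfatases that Sumf1 activates and the enzymes that follow them in the lysosome were called in both directions. Of 16 tested sulfatases and lysosomal enzymes of glycosaminoglycan breakdown, 2 rose, 5 fell and 9 were not called, with a median log2 fold change of -0.16. Arsa, arylsulfatase A, which desulfates sulfatide, averaged 19.6 ± 2.45 CPM in KO (SD, n = 4) and 29.9 ± 1.91 CPM in WT (SD, n = 5) and fell by 0.62 (adjusted p = 0.00274 in edgeR's test). Arsk, a glucuronate sulfatase, rose by 0.74 (adjusted p = 0.0108; lost in 2 of 22 alternatives). Idua, the lysosomal iduronidase, averaged 32.0 ± 9.76 CPM in KO (SD, n = 4) and 70.5 ± 31.2 CPM in WT (SD, n = 5) and fell by 1.03 (adjusted p = 0.000816), a call lost in the model without the run term. Gusb, beta-glucuronidase, rose by 0.43 (adjusted p = 0.0105; lost in 2 of 22 alternatives).

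Sulfotransferases outside the glycan families had 3 of 6 tested genes called higher, 0 lower and 3 not called (median log2 fold change 0.41), beside 9.56% higher and 8.96% lower over all tested genes. Sult1d1, a cytosolic sulfotransferase of small phenols and amines, averaged 51.4 ± 11.7 CPM in KO (SD, n = 4) and 27.2 ± 12.0 CPM in WT (SD, n = 5), a log2 fold change of 0.87 (adjusted p = 0.000649 in edgeR's test; lost in 1 of 22 alternatives). Sult2b1, which sulfates sterols, and Tpst2, a tyrosylprotein sulfotransferase, rose by 1.21 and 0.41 (adjusted p = 0.0355 and 0.0467; lost in 10 and 18 of 22 alternatives). Sult2b1 stood at 3.895 to 7.31 CPM in KO and 1.01 to 3.886 CPM in WT. It reached the level of the low-count filter in every KO library, and in too few WT libraries to pass without them. Its call is therefore only a description. Of the terminal N-acetylgalactosamine and HNK-1 acceptor enzymes, 1 of 4 rose, which was B4galnt3, 0 fell and 3 were not called, with a median of 0.37, beside the same shares.

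**Figure D5:**
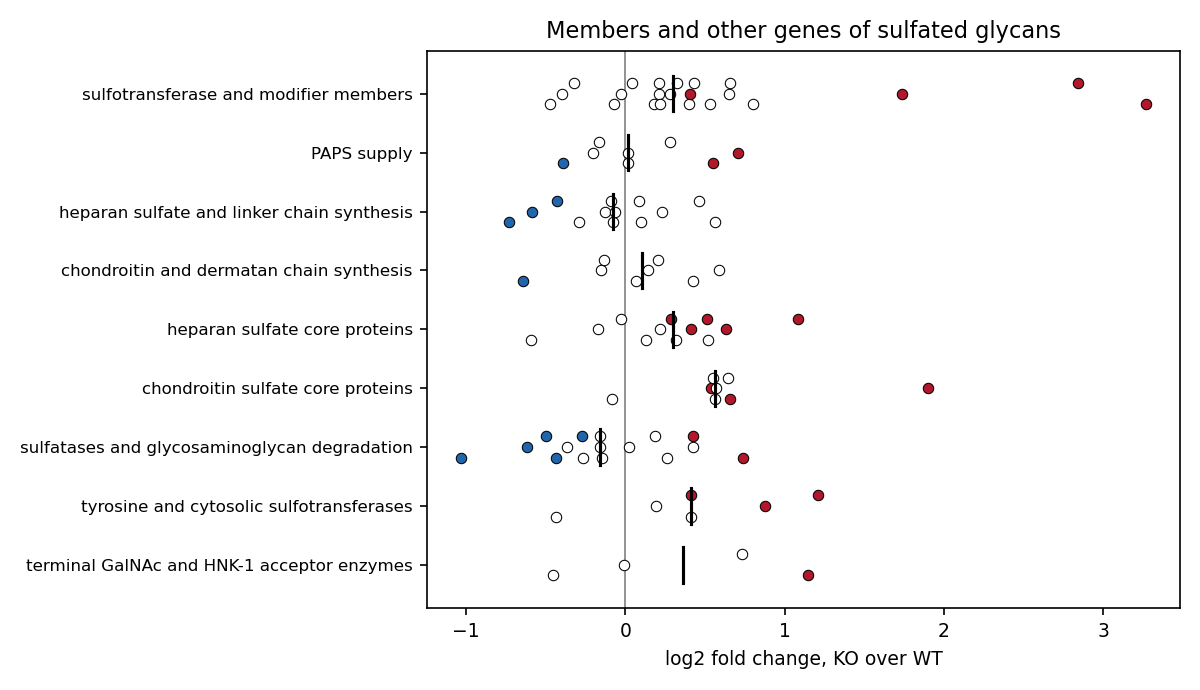
Log2 fold change of KO over WT (x axis) for the 22 tested members in the top line and for the tested genes of 8 lists (y axis), with red for genes called higher, blue for genes called lower, white for genes not called and a black bar at each median. Core protein medians are 0.30 and 0.57, and those of chain synthesis and of breakdown are -0.07, 0.11 and -0.16.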

How the data were processed

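Islets were digested out with collagenase, hand-picked, cultured overnight and frozen, and libraries were made with a stranded low-input total RNA kit, per the labels' protocols. The authors deposited raw counts per gene symbol and FPKM values per gene, 1 column per library. FastQC, Bowtie2 2.2.4.0, Cuffdiff 2.2.1, edgeR and mm10 are named with no role, per the submitters' processing notes. The counting tool, its use of strand and its treatment of reads with several matches are not given in the sources used here. Overlapping and related genes are therefore uncertain. Rows with a date in place of a symbol (27 of 24420) were left out.

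Counts were tested with the quasi-likelihood method of edgeR 4.0.16 (R 4.3.3), with TMM scaling, the default filter by genotype group, and run and genotype as terms, adjusted by Benjamini-Hochberg over 12501 genes. A standard error is the log2 fold change divided by the square root of F. The step was also run on simulated counts, in which 200 genes were changed. Those counts were drawn with the dispersions fitted here, so that run checks the method's code and not the libraries. Total counts of 3796043 to 6073537 limit precision for genes at a few CPM. Alternatives were DESeq2 1.42.0, limma 3.58.1 on log2(FPKM + 0.1) and log2(FPKM + 1), other scaling and filters, and no run term. Others were an acinar covariate, libraries left out, and KO against f/f controls, with f/+ as a separate group in the same fit. No pair of replicates agreed within counting noise.

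The members and the gene lists were chosen with earlier results of these data known. Values in every library are given for members called in the fit and for the 3 uncalled members with the highest WT FPKM, among others chosen after their values were seen, and up to 4 called genes with the lowest p are named from each list. Promoter windows come from RefSeq (GRCm38.p6) and gene positions from GENCODE M21 (GRCm38).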

Additional observations from a re-analysis of the deposited data

Results flagged for a closer look

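Of 44 groups of 4 or 5 libraries examined, 4 held a library whose gap to the nearest other was past the 95% critical value, and chance gives about 1 in 20. Chst11 stood at 112 CPM in WT 3, where the next WT library had 73.6 CPM. Chst1 stood at 4.97 CPM in WT 3, where the next had 1.66 CPM. Sulf2 stood at 25.3 CPM in KO 3, where the next KO library had 18.1 CPM. Ndst2 stood at 7.08 CPM in WT 1, where the nearest WT library had 9.70 CPM.

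Gal3st4, which sulfates galactose of O-glycans and did not pass the filter on low counts, was higher in both KO libraries than in both WT libraries of run 3, with a difference in means of 0.69 CPM, and lower in both KO libraries than in all 3 WT libraries of run 1, with -0.83 CPM. This difference between runs was not tested. The gene has 3 to 14 counts per library and shares 3221 exon bases with Gm43720 on its own strand.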

How the results depend on the processing

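Over 22 alternatives Chst8, Hs6st2 and Sumf1 stayed called higher, with log2 fold changes of 2.04 to 3.45, 1.22 to 3.77 and 1.65 to 1.81, and 18 of the 22 tested members changed call under none of those run (20 for Chst3, which did not pass the filter without WT 4 or without WT 5); the others were Ndst1, Chst1, Chst11 and Sulf2. The members called higher numbered 3 to 6 with single libraries left out, 6 without WT 3, and those called lower were 0 throughout. The count over all genes was 2315, and it was 672 with no run term, 1389 against f/f controls, 1488 without WT 2 and WT 5 (the libraries with the most Rn45s), 1519 without KO 2 and WT 2, 1427 with an acinar covariate, 1274 on unfiltered FPKM, and 1595 to 2334 with single libraries left out. Of the pathway genes 16 rose and 10 fell. Those counts were 2 and 3 with no run term, 6 and 4 against f/f controls, 9 and 5 without KO 2 and WT 2, and 6 and 6 with an acinar covariate. On FPKM the rises were 8 and 10 with the pseudocounts of 0.1 and 1, and 5 with 6 falls without a filter. With single libraries left out the rises were 11 to 16 and the falls 4 to 10. Of 22 other named genes, 4 kept their call under all alternatives, namely Arsa, Cd44, Fam20b and Glce. Members called between runs numbered 3, against 10 without a filter, 5 with at least 1 CPM in 4 libraries and 1 to 4 with single libraries left out, which were alternatives chosen after seeing the data. The cause of these changes was not tested, and the fits that leave libraries out also hold fewer libraries. No member was called in the interaction or between the control genotypes under any alternative run, with 0 to 0 over the libraries left out. No paired analysis was made, because the labels pair no KO library with a WT library. The labels carry no replicate numbers, and those in the library names were assigned here.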
